A study of Homo sapiens with 10 samples.

Results

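The p53 target genes described here are 31 genes that the transcription factor p53 is known to switch on, taken by gene symbol from a table of 58870 genes. All 31 were found and all 31 passed the filter on low counts, which left 16411 genes for the tests across libraries. The cells were LS180, an established human colorectal cancer line, grown without drug, and every line carried CRISPR interference, in which a catalytically dead Cas9 and a guide RNA repress a chosen promoter. Lines sg1, sg2 and sg3 carried 1 guide each against RNASE1, a secreted ribonuclease, and lines NTC2 and NTC1 carried non-targeting guides. Each of the 5 lines had a B and an A library, so that 6 guide libraries stood beside 4 NTC libraries. The labels leave the meaning of the letters unstated, and with it whether B and A came from different cultures. P-values of tests across libraries therefore rest on library-to-library spread that may be technical. The test of guide against NTC lines, with B and A summed, rests instead on the spread between lines, each perhaps 1 culture. Whether a line was 1 clone is also unstated.

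In unstressed cells p53 is kept low because MDM2, itself a p53 target, tags it for degradation. DNA damage and other stresses stop that degradation, and p53 then binds paired half-sites in its target genes and raises their transcription. The targets halt the cell cycle, repair DNA, alter metabolism, open the way to apoptosis, or, like MDM2 and PPM1D, turn the response off again. The cells here received no drug, so the values below are basal levels. All are bulk measurements of RNA, in which fewer cells of a type and less RNA per cell cannot be told apart.

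Totals were 39026605 to 45050991 expected counts per library. RNASE1 had 1.02 to 3.75 CPM (counts scaled to library size) in the guide libraries, against 16.4 to 23.7 CPM in the NTC libraries, which left 10.4% of the NTC level in the guide lines, the direction the labels give. All 10 colorectal epithelial markers (such as EPCAM, CDH17 and KRT20) were at 1 CPM or more. PTPRC of leukocytes was at 0 in every library, and 1 of 3 leukocyte markers reached 1 CPM, LYZ, which intestinal secretory cells also make. Of 3 fibroblast markers 1 reached 1 CPM, and of 3 endothelial markers 0 did. The summed epithelial markers were 5811 to 6888 CPM in B libraries and 7295 to 7616 CPM in A libraries, a sum led by the keratin gene KRT8 (mean 2539 CPM in B and 3281 CPM in A libraries). The 10 markers did not move together: 6 had a lower and 4 a higher mean in B. All B libraries lay below all A libraries for KRT8, KRT18, KRT19 and CDH17, and above them for VIL1 and CDX2. The fibroblast sum was 1.90 to 2.84 CPM in B and 1.43 to 2.24 CPM in A libraries, and the endothelial sum 0.143 to 0.358 CPM in B and 0.0224 to 0.164 CPM in A libraries.

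The set of RefSeq promoter windows searched (build GRCh38.p14, 250 bases before to 50 after a transcript start) held 26 of the 31 genes, with 41 windows in all. The other 5 genes had no window in that set, so nothing is said here about their promoters. The windows were searched for the p53 half-site, the 10-base sequence that binds a pair of p53 molecules. It reads as the same motif on both strands. A half-site stood in 6 of those 41 windows (14.6%), each from a different gene, and in 6.63% of the 35116 windows searched. In DDB2 the pair of half-sites lay from base 6 to base 26 after the start, with a spacer of 1 base. Pairs with a spacer of 0 to 13 bases stood in 10 of all 35116 windows (0.0285%). The single half-sites of FDXR, AEN, SESN1, FAS and PLK2 began 11, 34, 49, 122 and 132 bases before the start. The 6 stretches of 30 bases below are read 5′ to 3′ on the gene's strand with half-sites in capitals. They are shown because they are the places in the members' windows where the motif matched. They lie at chr11:47214975-47215004 (plus strand, DDB2), chr17:74872986-74873015 (minus, FDXR), chr15:88621296-88621325 (plus, AEN), chr6:109009018-109009047 (minus, SESN1), chr10:88991299-88991328 (plus, FAS) and chr5:58460199-58460228 (minus, PLK2).
DDB2: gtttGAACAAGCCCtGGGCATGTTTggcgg
FDXR: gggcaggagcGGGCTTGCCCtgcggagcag
AEN: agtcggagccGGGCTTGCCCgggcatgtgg
SESN1: attgtcgtctGGACAAGTCTccacaagtca
FAS: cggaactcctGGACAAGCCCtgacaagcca
PLK2: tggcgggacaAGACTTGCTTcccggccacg
A match describes letters and is not a measured binding site, and no match says only that these letters are not in the window.

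The basal levels of the 31 genes spanned a 134-fold range. Levels were compared between genes as CPM per kilobase of merged exon, averaged over the 4 NTC libraries, and ranked among the tested genes. The median of the p53 targets was 7.35 CPM per kb, beside 3.53 CPM per kb over all tested genes, and 24 of 31 lay above the median of tested genes. Of these, 5 stood in the top 10% of tested genes.

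Cell cycle genes held both the highest and some of the lowest levels. CCNG1, an atypical cyclin that brings a phosphatase to MDM2, was the most abundant of the 31 per length, at 74 to 95.2 (median 86.5) CPM per kb in the 6 guide libraries and 88.7, 93.6, 79.3 and 96.4 CPM per kb in the NTC libraries NTC2 B, NTC2 A, NTC1 B and NTC1 A. CDKN1A, which encodes the cyclin-dependent kinase inhibitor p21, followed with 57.02 to 74.7 (median 66.1) CPM per kb in guide libraries and 58.9, 72.1, 60.3 and 70.7 CPM per kb in NTC libraries, in the same order. In NTC libraries the ranges of CCNG1 and CDKN1A did not overlap, and in guide libraries they met at their ends. The guide and NTC libraries of either gene overlapped. BTG2, an antiproliferative partner of the mRNA deadenylase complex, averaged 15.8 CPM per kb in NTC libraries. ZMAT3, a zinc finger RNA-binding protein, averaged 6.25 CPM per kb. The polo-like kinases PLK2 and PLK3 averaged 2.77 and 1.94 CPM per kb, both below the median of tested genes.

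Of the genes that feed back on p53, MDM2, the ubiquitin ligase, averaged 13.4 CPM per kb (percentile 77.7) in NTC libraries. PPM1D, the phosphatase WIP1, averaged 5.79 CPM per kb. MDM4, the partner of MDM2 and not one of the 31, stood at 0.875 CPM per kb (percentile 29.3). Listed beside MDM2 and PPM1D were SUSD6, a membrane protein, at 3.02 CPM per kb and FBXW7, the substrate receptor of a ubiquitin ligase, at 1.63 CPM per kb. The level of FBXW7 depended on the length used, at 3.201 CPM per kb of its longest transcript.

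Among 11 genes of apoptosis and death receptors the levels differed widely, and the lowest of the 31 was one of them. TRIAP1, a small mitochondrial protein that protects from apoptosis, had 40.1 to 48.3 (median 45.1) CPM per kb in guide libraries and 44.1, 46.4, 40.4 and 49.2 CPM per kb in NTC libraries. TNFRSF10B, the death receptor DR5, averaged 18.6 CPM per kb in NTC libraries and AEN, a nuclease, 16.3 CPM per kb. The BCL2 family killers were lower, with BAX at 7.35 CPM per kb and BBC3, which encodes PUMA, at 5.36 CPM per kb. FAS, the other death receptor, averaged 4.91 CPM per kb, and PHLDA3, which restrains AKT at the membrane, 8.54 CPM per kb. TP53I3, an oxidoreductase, TP53INP1, a nuclear and autophagy protein, and SPATA18, a mitochondrial quality protein, averaged 3.64, 2.97 and 2.42 CPM per kb. EDA2R, a TNF receptor family member, was the lowest of the 31, at 0.6396 to 0.989 (median 0.792) CPM per kb in guide libraries and 0.643, 0.646, 0.696 and 0.678 CPM per kb in NTC libraries. Its guide and NTC ranges overlapped.

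The 4 genes of DNA repair and nucleotide supply lay close together. XPC and DDB2, which recognise damage in nucleotide excision repair, averaged 7.59 and 7.39 CPM per kb in NTC libraries. RRM2B, a ribonucleotide reductase subunit, averaged 6.28 CPM per kb and POLH, the translesion polymerase eta, 5.80 CPM per kb. Metabolism and stress genes were split. CMBL, a hydrolase, and GDF15, a secreted stress cytokine, averaged 42.1 and 41.9 CPM per kb. FDXR, the mitochondrial ferredoxin reductase, TIGAR, a phosphatase that slows glycolysis, and the sestrins SESN2 and SESN1 averaged 10.8, 8.54, 7.98 and 5.43 CPM per kb.

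**Figure D1:**
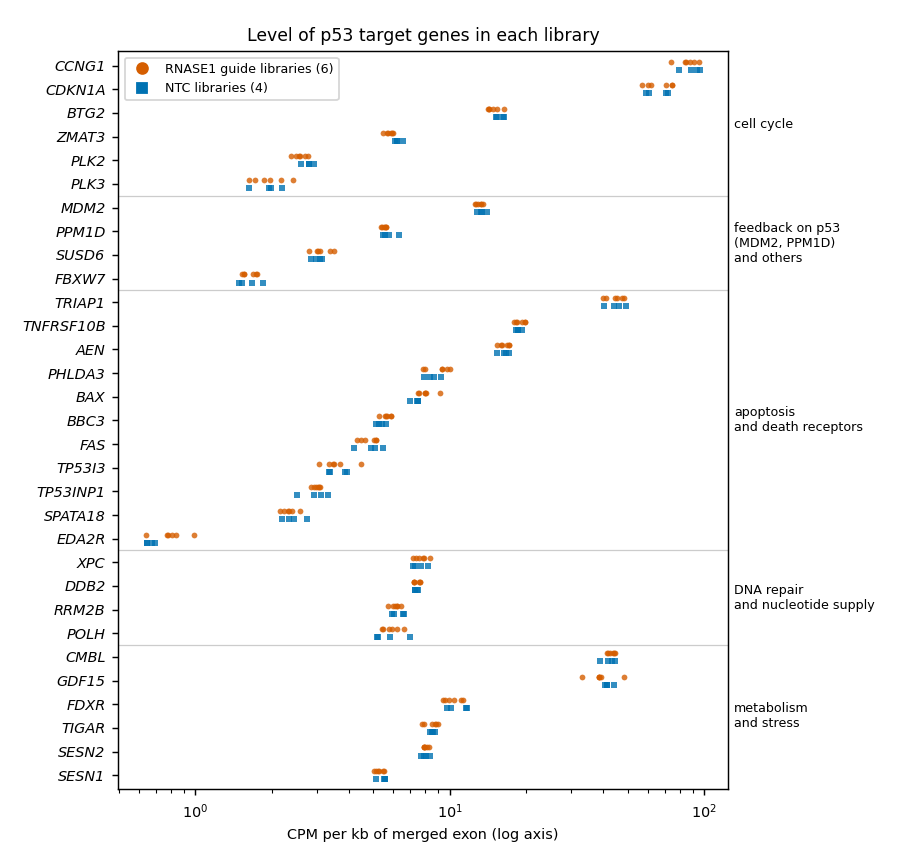
Level of each p53 target gene in CPM per kb of merged exon (log axis), 1 point per library, with the 6 guide libraries above the 4 NTC libraries in each row and genes ordered by role. CCNG1 and CDKN1A lie at the right and EDA2R at the left, and the guide and NTC points of a gene lie close together beside the 134-fold range between genes.

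Neighbours in this order often could not be told apart by their library ranges. CMBL and GDF15 overlapped in the NTC libraries (38.8 to 44.5 against 40.6 to 44.1 CPM per kb), as did XPC and DDB2 (7.17 to 8.21 against 7.28 to 7.51 CPM per kb). With the longest transcript in place of merged exons the 5 leading genes were again the top 5, and 8 genes moved by over 5 percentile points, by up to 7.3. Across the 10 libraries the median coefficient of variation was 7.01%, beside 6.16% for the 11676 tested genes at or above the mean level of the lowest of the 31 (2.68 CPM). DDB2 and SESN2 varied least (2.31% and 2.37%), followed by MDM2 (3.34%). EDA2R and PLK3, the least abundant of the 31 in CPM, varied most (14.9% and 13.3%).

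Between the B and A libraries some p53 targets rose and others fell. With line and letter as terms, 13 of the 31 p53 targets passed an adjusted p of 0.05 (edgeR quasi-likelihood test, Benjamini-Hochberg over all tested genes), 5 higher and 8 lower in B. The same test called 29.6% of all tested genes, 14.6% higher and 15% lower in B. Among tested genes at or above the level of the lowest target it called 39.5%, 19.1% higher and 20.4% lower in B, so the share of targets called (41.9%) was near the background. The median log2 fold change of the targets was -0.02, beside 0.0004 over all tested genes. Counts depended on single libraries: 7 targets were called without sg3 B, sg3 A or NTC1 A, and 8 without NTC1 B. Calls over all tested genes were then 3493, 3583, 3436 and 3399 in the same order, beside 4850 with all libraries. In the guide lines alone 0 were higher and 5 lower in B, and in all genes 1354 were higher and 1288 lower. Called genes were lower in B by at most 17.7% and higher in B by at most 16.8%, so the letter differences were small against the range between genes.

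CDKN1A had the smallest p of the 31. It had 188, 174, 184, 179.7 and 184 CPM in the B libraries of lines sg1, sg2, sg3, NTC2 and NTC1, against 228, 215, 228, 219.8 and 216 CPM in the A libraries of the same lines. All 5 B libraries lay below all 5 A libraries. The log2 fold change, B over A, was -0.28 (SE 0.03, adjusted p = 8.6e-06), and it stayed between -0.30 and -0.26 in 22 alternative fits. The gene (ENSG00000124762) lies on chromosome 6 from 36676460 to 36687339 of GRCh38, plus strand.

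Of the 6 cell cycle genes 2 were lower and 1 was higher in B, beside 20.4% lower and 19.1% higher in the background given above. CCNG1 had 229, 263, 259.5, 275 and 246 CPM in the B libraries, against 273, 295, 283, 289.9 and 298 CPM in the A libraries, lines in the same order here and below. CCNG1 was lower in B in 5 of 5 lines although the letters overlapped (log2 fold change -0.18, SE 0.03, adjusted p = 0.000847). BTG2 went the other way, with 42.4, 39.4, 45.1, 44.6 and 45.2 CPM in B against 39.3, 38.8, 40.9, 41.8 and 42.1 CPM in A libraries. It was higher in B in 5 of 5 lines with overlap (0.09, adjusted p = 0.0394), and leaving out any library of sg1, sg3, NTC2 or NTC1 ended the call (0.08 to 0.10). PLK3 had 7.52, 5.67, 5.96, 5.63 and 6.8 CPM in B against 8.405, 6.85, 6.47, 7.65 and 6.92 CPM in A libraries. It was lower in B in 5 of 5 lines with overlap, and its log2 fold change of -0.20 missed the threshold (adjusted p = 0.0546). PLK2 stood at -0.06 and ZMAT3 at 0.02, neither past it.

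MDM2 had 176, 176, 171, 186 and 176 CPM in B against 167, 179, 169, 170.2 and 178 CPM in A libraries. The letters overlapped, B was higher in 3 of 5 lines, and the log2 fold change of 0.04 (95% interval -0.02 to 0.10) did not pass (adjusted p = 0.341). PPM1D was higher in B in 5 of 5 lines, at 0.06 (adjusted p = 0.245).

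FBXW7 and SUSD6, the other 2 genes listed with them, were higher in B, on the background of 19.1% higher given above. FBXW7 had 19.3, 18.6, 19.2, 18.5 and 20.5 CPM in B against 17.2, 16.9, 17.2, 16.5 and 16.9 CPM in A libraries, with no overlap (log2 fold change 0.18, SE 0.04, adjusted p = 0.00619). SUSD6 had 20.4, 17.98, 19.6, 18.02 and 18.4 CPM in B against 17.5, 17.7, 16.2, 17.4 and 16.6 CPM in A libraries. These did not overlap either (0.14, SE 0.05, adjusted p = 0.0378), and the call of SUSD6 ended without any library of sg1, sg3 or NTC1 (0.11 to 0.14).

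**Figure D2:**
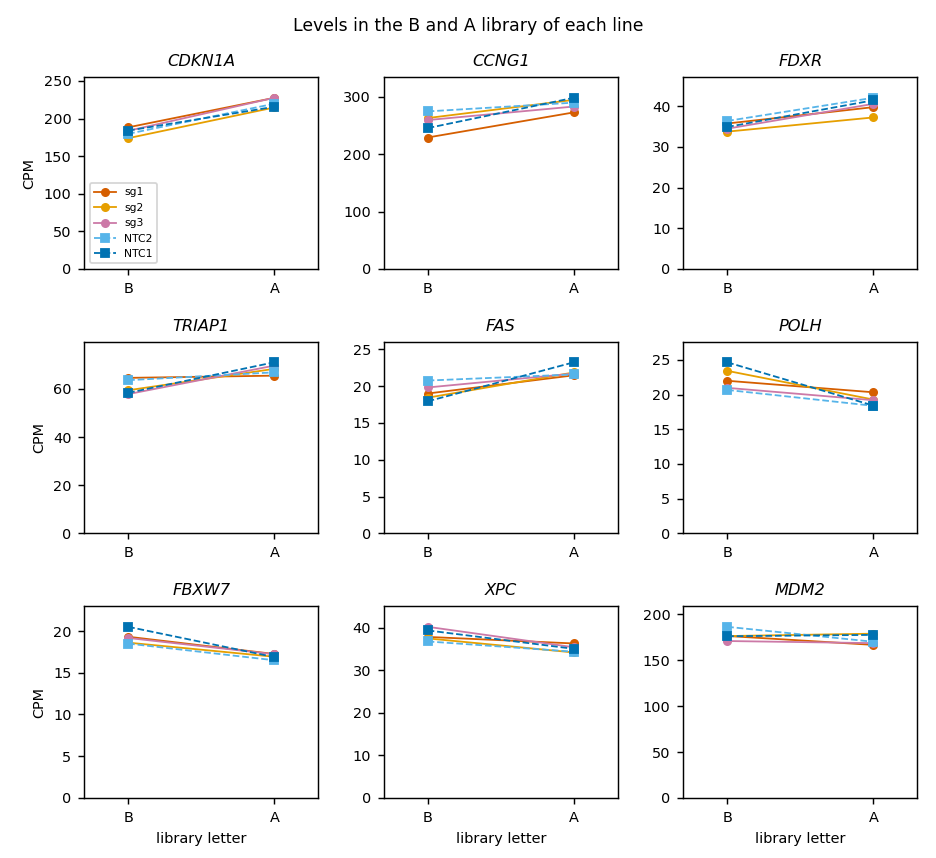
CPM of 9 genes in the B and A library of each line, joined by line, with guide lines as circles and NTC lines as squares; each axis starts at 0. CDKN1A, FDXR, TRIAP1 and FAS were lower in all 5 B libraries than in any A library, POLH, FBXW7 and XPC were higher, CCNG1 overlapped, and MDM2 shows lines crossing.

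In the apoptosis and death receptor group 4 of 11 genes fell in B and none rose, on the background of 20.4% lower and 19.1% higher given above. TRIAP1 had 64.5, 59.4, 57.8, 63.6 and 58.3 CPM in B against 65.5, 68.3, 69.6, 66.8 and 71 CPM in A libraries. All B libraries were lower (log2 fold change -0.17, SE 0.04, adjusted p = 0.00563). FAS had 18.99, 18.4, 19.8, 20.8 and 17.9 CPM in B against 21.5, 21.9, 21.7, 21.6 and 23.2 CPM in A libraries. These did not overlap (-0.20, SE 0.05, adjusted p = 0.0076). SPATA18 had 10.6, 11.4, 11.04, 11.5 and 10.8 CPM in B against 11.6, 12.7, 11.8, 13.5 and 12.1 CPM in A libraries. They were separate by a narrow gap (-0.15, adjusted p = 0.0347), and the call ended whichever library was left out (-0.17 to -0.13). PHLDA3 had 31.4, 24.96, 24.6, 24.8 and 26.3 CPM in B against 30.6, 29.1, 29.1, 27.2 and 28.96 CPM in A libraries. The B library of sg1 was the highest of the 10, and the other 4 B libraries lay below all A libraries (-0.14, adjusted p = 0.0272), and the call ended without any library of sg2, sg3, NTC2 or NTC1 (-0.14 to -0.11). TNFRSF10B was lower in all B than in all A libraries, at 92.4 to 95.6 CPM in B against 95.8 to 102 CPM in A libraries, and missed the threshold (-0.08, adjusted p = 0.0527). Without either NTC2 library it passed (-0.09). The other 6 genes of the group, BAX, BBC3, AEN, TP53I3, TP53INP1 and EDA2R, had log2 fold changes from -0.06 to 0.08 and did not pass.

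Of the 4 genes of DNA repair and nucleotide supply 2 were higher in B, on the background of 19.1% higher given above. POLH had 21.98, 23.4, 20.96, 20.7 and 24.6 CPM in B against 20.3, 19.3, 19.2, 18.4 and 18.4 CPM in A libraries. It was higher in every B than in every A library, with the most positive log2 fold change of the 31 (0.22, SE 0.05, adjusted p = 0.004). XPC had 37.9, 37.5, 40.2, 36.8 and 39.4 CPM in B against 36.3, 34.2, 35.4, 34.4 and 35.1 CPM in A libraries. There was no overlap (0.13, SE 0.03, adjusted p = 0.0101), and the call ended without sg3 B, sg3 A or NTC1 A (0.11 to 0.12). An exon of XPC overlaps one of LSM3 by 318 bases on the opposite strand. LSM3 averaged 88.0 CPM, beside 36.7 CPM for XPC, and was lower in B (-0.11, adjusted p = 0.00848); the library kit did not mark strand. DDB2 and RRM2B, at -0.04 each, did not pass.

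Of the 6 metabolism and stress genes 2 were lower in B, on the background of 20.4% lower given above. FDXR had 35.8, 33.8, 34.5, 36.4 and 34.9 CPM in B against 39.8, 37.3, 40.6, 42.1 and 41.5 CPM in A libraries. All B libraries lay below all A libraries (log2 fold change -0.20, SE 0.03, adjusted p = 0.000593). CMBL had 137, 146, 138, 139 and 129 CPM in B against 148, 147, 142, 148 and 144 CPM in A libraries. It was lower in B in 5 of 5 lines with overlap and barely passed (-0.08, adjusted p = 0.0496), a call that ended without any library of sg1, sg3, NTC2 or NTC1 (-0.09 to -0.06). GDF15, TIGAR, SESN1 and SESN2 had log2 fold changes from -0.03 to 0.06 and did not pass.

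**Figure D3:**
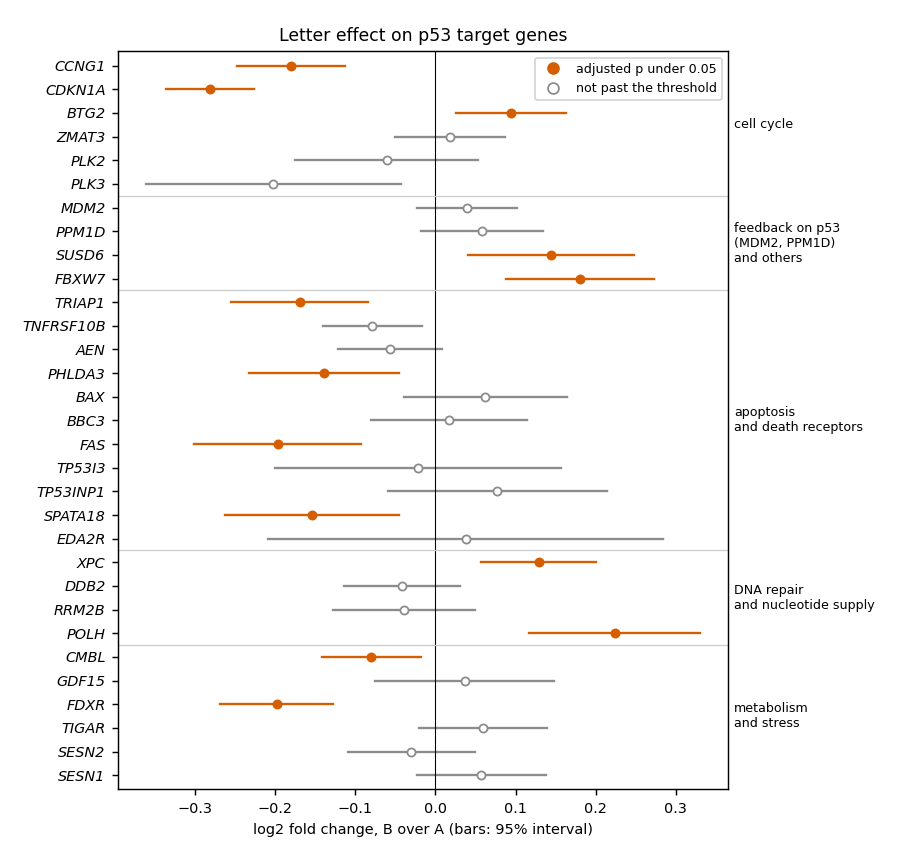
Log2 fold change, B over A, of each p53 target with its 95% interval, by role, filled where the adjusted p was under 0.05. CDKN1A is the lowest at -0.28 and POLH the highest at 0.22, and 13 of 31 genes are filled.

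In all, 6 targets had every B library below every A library and 4 had every B library above. Over all tested genes these shares were 9.58% and 9.64%, a background that includes genes at lower levels than any target. Shares for genes at the level of the targets were not computed. The 5 calls of CDKN1A, CCNG1, FDXR, TRIAP1 and FAS held in all 22 alternative fits, which are not all separate checks. Leaving out either library of a line, or the line, drops the same pair. The test of a letter effect that differs between guide and NTC lines called 0 of 31 (0% of all tested genes). At an unadjusted p under 0.05 stood 1 of 31, beside 5.73% of all tested genes. That gene was TP53INP1, with a difference of -0.27 between the letter effects of guide and NTC lines (adjusted p = 0.867). Its A library of NTC2, at 14.28 CPM, lay below the other A libraries (16.64 to 17.37 CPM).

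Transcript length moved with the letter effect. Over 11668 genes at or above the level of the lowest target the rank correlation of the log2 fold change with merged exon length was 0.335, and over the 31 targets it was 0.288; these genes share the same 10 libraries. Among these 11668 genes, the shortest 10% (median 1.5 kb) had a median log2 fold change of -0.08 and the longest 10% (median 12.8 kb) one of 0.10. The 5 targets called higher in B were 2.76 to 11.1 kb long (median 4.80 kb), and the 8 called lower were 1.44 to 4.94 kb (median 3.23 kb). With each library's trend with length and GC content removed, an alternative chosen after seeing the data, 13 targets were again called, 3 higher and 10 lower in B, and 10 were called in both fits. In that fit 2074 genes were higher and 2726 lower, beside 2392 and 2458 without the correction. FBXW7 (0.11, beside 0.18 without the correction), SUSD6 (0.12, beside 0.14) and CMBL (-0.05, beside -0.08) lost the call. PLK3 (-0.21, beside -0.20), TNFRSF10B (-0.09, beside -0.08) and AEN (-0.08, beside -0.06) gained it with little change in value. TRIAP1, the shortest of the 31, stood at -0.10 in place of -0.17, while CDKN1A stood at -0.27, FDXR at -0.21 and POLH at 0.25.

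**Figure D4:**
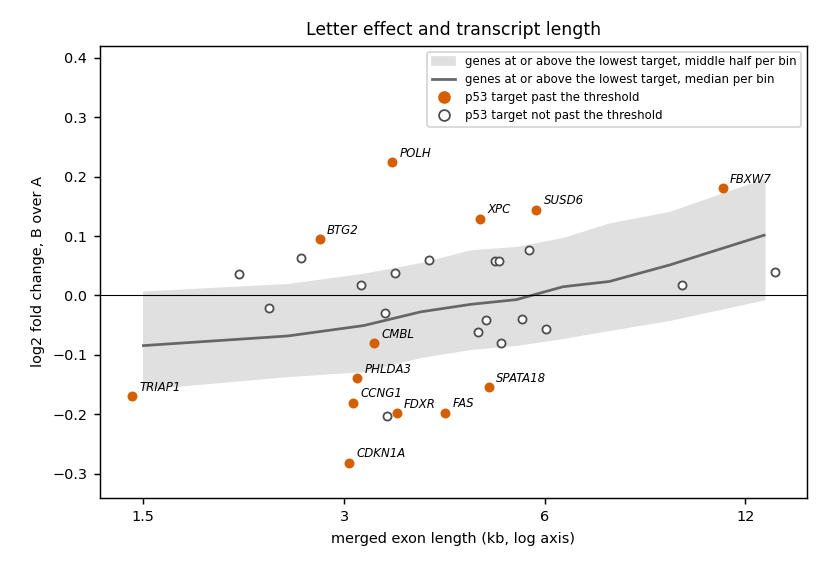
Log2 fold change, B over A, against merged exon length (log axis) for the 31 p53 targets as points, filled where the adjusted p was under 0.05, with the median (line) and middle range (grey band) of the 11668 genes at or above the level of the lowest target in 10 bins of length. The grey line stands at -0.08 at 1.5 kb and at 0.10 at 12.8 kb; CDKN1A, FDXR and FAS are among the points below the band, and POLH, XPC and BTG2 among those above it.

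Further genes of the p53 pathway, from lists of regulators and targets, were read in the same fit. Of 30 regulators, 13 were higher and 2 lower in B, on the background of 19.1% higher and 20.4% lower given above. Their median log2 fold change was 0.08, beside 0.0004 over all tested genes. Thus 15 of 30 were called, beside 29.6% of all tested genes and 39.5% of those at or above the level of the lowest of the 31 targets. The higher ones with the smallest p were HIPK2, a kinase of p53 (0.34), the acetyltransferases CREBBP (0.31) and EP300 (0.26), and TRIM24, a ubiquitin ligase (0.33). HIPK2 had 206, 208, 219, 209.5 and 200.3 CPM in B against 162, 169, 165, 162 and 166 CPM in A libraries, which did not overlap. MDM4 was also higher (0.37, adjusted p = 0.000848), with 11.7, 11.98, 11.3, 10.6 and 12.1 CPM in B against 10.5, 9.72, 8.79, 7.65 and 8.203 CPM in A libraries, all separate. TP53RK (-0.19) and CHEK2 (-0.12), both kinases, were lower. With the length and GC correction 10 regulators were higher and 3 lower, with a median of 0.04.

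Of 48 further targets, 45 were tested, and 14 were lower and 4 higher in B (median -0.01). Background shares given above were 20.4% lower and 19.1% higher. The share called, 40.0%, was near the 39.5% of genes at or above the level of the lowest of the 31. The lower ones with the smallest p were SERPINB5, which encodes maspin (-0.49), EPHA2, a receptor kinase (-0.21), TM7SF3, a membrane protein (-0.18), and RPS27L, a ribosomal protein paralog whose reads may be shared with RPS27 (-0.21). SERPINB5 had 88.5, 80.6, 86.3, 81.8 and 83.9 CPM in B against 123, 121, 119, 111 and 119.5 CPM in A libraries, with a wide gap between them. Those higher were E2F7, a transcriptional repressor (0.27), REV3L, the catalytic subunit of a translesion polymerase (0.34), ASCC3, a helicase (0.11), and STEAP3, a metalloreductase (0.09). The corrected fit gave the same counts of 14 lower and 4 higher.

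Genes that p21 represses through the DREAM complex were lower in B in 10 of 20 and higher in 1 (median -0.08). The same background of 39.5% (20.4% lower and 19.1% higher in B) includes genes at lower levels than any of the 20. Beside it, 11 of 20 were called. They were led by CCNB1, cyclin B (-0.24), BIRC5, survivin (-0.24), AURKA, a mitotic kinase (-0.19), and CCNA2, cyclin A (-0.17), while MCM5, a subunit of the replicative helicase, was higher (0.11). CCNB1 had 241, 239.6, 238, 255 and 239 CPM in B against 285, 287, 278, 288 and 292 CPM in A libraries, which did not overlap. CDKN1A, the gene of p21, was lower in the same libraries, as was the keratin-led sum of epithelial markers given above, although VIL1 and CDX2 were not. The part of the epithelial markers in these letter differences was not tested. With the length and GC correction 10 of the 20 DREAM genes were lower and 1 higher in B, with a median of -0.05.

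No p53 target passed the test between the RNASE1 guide lines and the NTC lines. With the counts of B and A summed per line, 3 guide lines against 2 NTC lines, 0 of 31 targets passed (0.0231% of 17335 tested genes did), and 0 of 31 with DESeq2. At an unadjusted p under 0.05 stood 2 of 31, beside 7.98% of all tested genes. Log2 fold changes, guide over NTC, ran from -0.11 to 0.27 with a median of -0.004, beside -0.0008 over all tested genes. The 95% interval stayed within a 1.5-fold change either way for 31 of 31 genes, and EDA2R had the widest.

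CDKN1A averaged 203 ± 7.31 CPM in guide lines (SD, n = 3 lines) and 199.8 ± 0.0651 CPM in NTC lines (SD, n = 2 lines), with a log2 fold change of 0.03 (95% interval -0.04 to 0.10). MDM2 averaged 173 ± 4.13 CPM in guide lines and 178 ± 0.977 CPM in NTC lines, at -0.04 (-0.10 to 0.03). For both, the guide and NTC libraries overlapped.

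ZMAT3 was the target with the smallest p. It had 52.8, 55.2, 57.4, 57.6, 56.4 and 54.8 CPM in the B then A libraries of sg1, sg2 and sg3, against 63.4, 58.6, 59.7 and 59.5 CPM in the B then A libraries of NTC2 and NTC1. Every guide library lay below every NTC library, which held for 0.408% of tested genes and for no other target. Guide and NTC libraries were separate in either direction for 0.914% of tested genes. The log2 fold change was -0.11 (SE 0.03, edgeR adjusted p = 0.389, unadjusted 0.00597). BAX, which opens the mitochondrial membrane in apoptosis, had 23.8, 20.6, 19.4, 20.7, 20.9 and 19.6 CPM in guide libraries and 19.5, 19.3, 19.2 and 18.1 CPM in NTC libraries, in the same order. The B library of sg1 was the highest of the 10 and the guide and NTC ranges overlapped slightly (0.13, SE 0.05, adjusted p = 0.54). EDA2R had 2.99, 2.79, 3.54, 2.89, 2.29 and 2.76 CPM in guide libraries and 2.303, 2.31, 2.49 and 2.42 CPM in NTC libraries. It had the largest log2 fold change, 0.27 (95% interval -0.01 to 0.55, adjusted p = 0.638), at the lowest level of the 31.

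Single guides against the NTC lines gave 0 of 31 calls each (0.00609% of 16411 tested genes for each guide, edgeR). That fit, also used among the guide lines and between NTC2 and NTC1, has no letter term. Differences between B and A therefore count as spread within a line. Before adjustment a p under 0.05 was reached by 3 targets for sg1, 2 for sg2 and 0 for sg3, beside 2.3%, 1.82% and 2.16% of all tested genes. For sg1 these were BAX (0.22), ZMAT3 (-0.16) and PHLDA3 (0.21), and for sg2 EDA2R (0.43) and GDF15 (-0.22). The 3 contrasts share the NTC libraries. GDF15 had 100.5, 82.3, 68.95, 80.7, 80.7 and 80.6 CPM in the B then A libraries of sg1, sg2 and sg3, against 92.04, 86.7, 86.2 and 84.7 CPM in those of NTC2 and NTC1. The B library of sg1 was the highest and that of sg2 the lowest of the 10. Among the guide lines 0 of 31 targets passed (0% of all tested genes), and 0 of 31 had an unadjusted p under 0.05, beside 1.38% of all tested genes. Between NTC2 and NTC1 0 of 31 passed (0% of all tested genes), and again 0 of 31 had an unadjusted p under 0.05, beside 1.72%. DESeq2 called 0 of 31 in each of these. With the letter as a block the counts at an unadjusted p under 0.05 were larger, at 5 targets for sg1, 5 for sg2 and 2 for sg3, beside 7.56%, 6.14% and 7.43% of all tested genes. Among the guide lines there were then 4 (4.18% of all tested genes) and between NTC2 and NTC1 1 (5.06%), and 0 of 31 passed after adjustment in each.

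With the letter as a block the guide comparison again called 0 of 31, with 4 targets at an unadjusted p under 0.05, beside 9.53% of 15979 tested genes. Within the B libraries alone and the A libraries alone it called 0 of 31 as well. The log2 fold change of the guides moved with GC content (rank correlation 0.436 over genes and 0.389 over the 31 targets), and with length and GC trends removed 0 of 31 passed. In that fit 6 of 31 had an unadjusted p under 0.05, beside 1028 of 17335 tested genes. These were BAX and EDA2R, higher in guide lines, and ZMAT3, FDXR, GDF15 and BTG2, lower. In the other pathway lists 0 of 30 regulators, 0 of 45 further targets and 0 of 20 DREAM targets passed in the guide comparison or for any single guide.

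**Figure D5:**
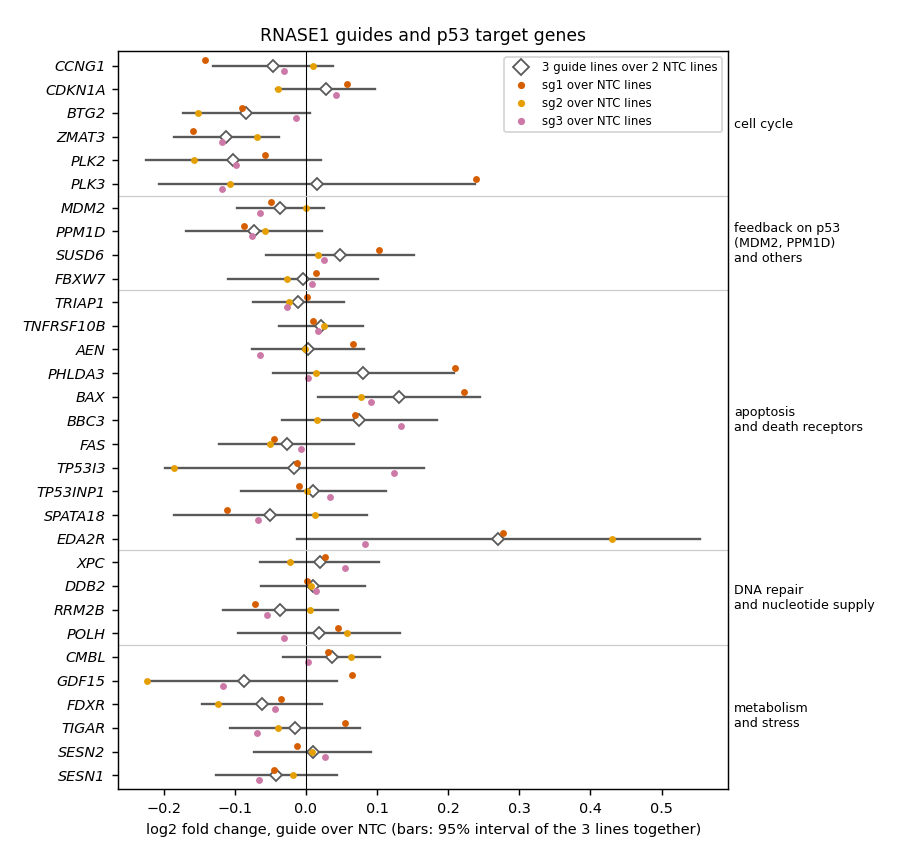
Log2 fold change of each p53 target, 3 guide lines over 2 NTC lines, with its 95% interval (diamonds and bars), and of sg1, sg2 and sg3 singly over the NTC lines (circles). Most intervals cross 0; those of ZMAT3 (-0.11) and BAX (0.13) do not before adjustment, and EDA2R has the widest interval, -0.01 to 0.55.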

How the data were processed

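The deposited values are expected counts in a single table, made with RSEM as its name has it, and 7.12% of them were not whole. The submitters' processing notes name hg38 as the build and, without saying what each did, FastQC 0.11.2, TopHat2 2.0.8 and CASAVA 1.8.2; which annotation release was used is not given in the sources used here. Reads that match more than 1 gene are shared out by RSEM. Per the labels' protocols the kit does not mark strand, so antisense reads cannot be separated. Of the 31 genes 13 have an exon that overlaps another gene, 6 of them one at 1 CPM or more, and 2 of the 31, MDM2 and TIGAR, hold counts that are not whole.

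Here the expected counts were rounded, which moves no value by more than 0.5, and tested in R 4.3.3 with edgeR 4.0.16 (quasi-likelihood test, TMM, filterByExpr, two-sided, Benjamini-Hochberg over all tested genes, threshold 0.05), and the scripts were tested on simulated data. CPM are TMM-scaled. Gene positions and merged exon lengths come from GENCODE release 29 on GRCh38, to which 58597 of 58870 identifiers matched. The letter comparison used line and letter over 10 libraries, the guide comparison counts summed per line, and single guides a fit of 5 line means. SDs are over lines. Variance between B and A of a line was 10.7 to 22 times that of sampling, so none looks like a repeat. Letters pair the libraries: deviations from line means were correlated in all 10 same-letter pairs (r 0.189 to 0.361 over 16411 genes, 0.486 to 0.781 over 9527 genes at 10 CPM or more).

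The members and lists were chosen with earlier results of these data known. Values per library are given for CDKN1A, MDM2, members past the threshold and the 3 most and 3 least abundant; of the other lists up to 4 genes per direction past the threshold, by p, and MDM4; 1 further gene that the rule names is not reported here. ZMAT3, BAX, GDF15, TNFRSF10B, LSM3 and other members below the threshold were named after their values were seen. Alternatives were other size factors, no filter, DESeq2 1.42.0, each library or line left out, the replicate block, single letters and, added after seeing the data, offsets for length and GC content (loess, span 0.5). Intervals cover counting error and the spread as fitted.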

Additional observations from a re-analysis of the deposited data

Results flagged for a closer look

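Each target was checked for a library standing apart from the other 4 of its letter, by Dixon's ratio with a critical value of 0.71, in 62 groups of 5. Chance flags about 1 in 20 groups, and 5 were marked. TP53INP1, a pro-apoptotic nuclear protein, had 14.28 CPM in the A library of NTC2, below the 16.64 to 17.37 CPM of the other A libraries. FAS had 23.23 CPM in the A library of NTC1, above the 21.46 to 21.85 CPM of the others. PPM1D had 31.91 CPM in the B library of NTC2, above 27.97 to 28.34 CPM in the other B libraries. DDB2 had 36.77 CPM in the B library of NTC1, above 35.34 to 35.71 CPM, a gap that is small beside its level. PHLDA3 had 31.37 CPM in the B library of sg1, above 24.56 to 26.28 CPM. These 5 libraries belong to 3 lines, and no gene was marked in both letters.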

How the results depend on the processing

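Of 13 targets called between letters, 5 held in all 22 alternatives, 8 lost the call somewhere and 0 changed sign. Of the others, 4 were called somewhere and 11 changed sign, none of them called when it did. The count of 13 became 8 with DESeq2 (3920 genes in all, beside 4850), 8 in the NTC lines alone, 5 in the guide lines alone (0 higher and 5 lower in B, beside 5 and 8), and 7 without line sg3 or line NTC1. Over all tested genes 3299 were called in the NTC lines alone and 2642 in the guide lines alone. Without line sg3 there were 3519 and without line NTC1 3479. Leaving out 1 library gave 7 to 11 targets (3399 to 4936 genes in all). For the letter, leaving out a library drops the same pair as leaving out its line. The subsets hold fewer libraries; for DESeq2 the cause was not tested. In the guide lines alone POLH (adjusted p = 0.0521), FBXW7, XPC, BTG2 and SUSD6, all 5 called higher, lost the call. In the guide comparison 0 of 31 were called in all 22 alternatives and 17 changed sign. With the replicate block 0 were called for the guide lines, for each guide, among guides and between NTC2 and NTC1, in all 14 alternatives of each. Without the filter on low counts the guide comparison called 238 genes in all, beside 4, and with DESeq2 55. Depth limits EDA2R most, at 2.68 CPM.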

Other observations

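Besides that of DDB2, the 10 promoter windows with a pair of p53 half-sites include those of PURPL, LNCTAM34A and PTCHD4. PURPL is a long non-coding RNA known to be induced by p53. LNCTAM34A is a transcript named for miR-34a, and PTCHD4 is a patched-domain protein. These were named after their values were seen and are not among the 31 genes. PURPL had 0.586 to 0.799 CPM in guide libraries and 0.571 to 0.896 CPM in NTC libraries. LNCTAM34A had 0.201 to 0.421 CPM in guide libraries and 0.449 to 0.641 CPM in NTC libraries, which did not overlap. All guide libraries lay below all NTC libraries for 0.408% of tested genes. No test result of LNCTAM34A is given here. PTCHD4 had 0.164 to 0.525 CPM in guide libraries and 0.260 to 0.404 CPM in NTC libraries. All were below 1 CPM, while DDB2, with the same kind of pair, had 35.3 to 37.5 CPM in guide libraries and 35.7 to 36.8 CPM in NTC libraries.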
